A study of Homo sapiens with 6 samples.

Results

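NFE2L2, the gene that encodes the transcription factor NRF2, and 9 of its established target genes were followed in H460 cells after knockdown of the long intergenic noncoding RNA HKlincR1. The 10 genes were fixed by name (NFE2L2, NQO1, GCLC, GCLM, TXNRD1, SRXN1, AKR1B10, AKR1C1, AKR1C2 and AKR1C3), and each matched 1 row among the 57773 Ensembl genes measured. All 10 passed the filter of a mean of at least 0.5 RPKM (read counts scaled by gene length and library total), as did 15451 genes in all. H460 is an established line of non-small-cell lung cancer, known to carry a mutation in KEAP1. That is background on the line, because RPKM values do not show mutations.

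NRF2 is held at a low level in most cells by KEAP1, which binds it and presents it to a CUL3 ubiquitin ligase for degradation. Oxidants and electrophiles, or a loss of KEAP1 function, let NRF2 accumulate, pair with a small MAF protein and bind antioxidant response elements in its target genes. In lung tumours with KEAP1 mutations this programme is known to stay on without stress, and it covers quinone reduction, glutathione synthesis, the thioredoxin system and the aldo-keto reductases. Because the control of NRF2 acts mainly on the protein, the NFE2L2 transcript level and the levels of its targets are separate readouts.

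Strand-specific polyA libraries were compared between 2 groups of 3 biological replicates, all of the same cell line, transfected at 50 nM and collected after 48 hours. One group received a non-targeting siRNA (siNT) and the other received a single siRNA against HKlincR1 (siHKlincR1_2, called siHKlincR1 below), so that effects of this siRNA on other transcripts cannot be told apart from effects of losing HKlincR1. The libraries held 24980280 to 30521000 reads. The targeted transcript, HKlincR1, measured 3.62, 3.47 and 3.83 RPKM in siNT and 0.563, 0.628 and 0.39 RPKM in siHKlincR1, so its mean fell by 85.5% (log2 fold change -2.59, SE 0.17, limma adjusted p = 0.00245). The cells expressed the epithelial keratins KRT8, KRT18 and KRT19 in every library, while EPCAM did not exceed 0.11 RPKM and the summed level of 5 markers of differentiated lung (NKX2-1, SFTPB, SFTPC, NAPSA and SCGB1A1) did not exceed 0.0365 RPKM, with SFTPB and SCGB1A1 at 0 throughout. Among 4 markers of other cell types, PTPRC and CD68 stayed at or below 0.126 RPKM, whereas COL3A1 measured 13.1 to 15.6 RPKM in siNT and 17.1 to 21.1 RPKM in siHKlincR1. The other collagen, COL1A1, went the opposite way, with 0.998 to 1.23 RPKM in siNT and 0.419 to 0.773 RPKM in siHKlincR1. The summed level of the 4 was 14.3 to 16.7 RPKM in siNT and 18.0 to 21.7 RPKM in siHKlincR1, and its part in the results below was not tested.

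Some sequences bear on how the values below can be read. The siRNA is shown because bases 2 to 8 of its guide strand, the seed, can pair with other transcripts in the manner of a microRNA. Capitals mark the seed in the guide and, in the 3′ UTRs, the 7 bases complementary to it (GTGTGCT). The sense strand comes from the sample descriptions and the guide is its reverse complement.
siHKlincR1_2 sense strand: gaaguauacucgugugcuu
siHKlincR1_2 guide strand: aAGCACACgaguauacuuc
TXNRD1 site 1: atttgcccctGTGTGCTacatgatgga
TXNRD1 site 2: ttagtttattGTGTGCTggtctaagca
AKR1C1 site: ggagtggtgtGTGTGCTgtgataagga

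Both TXNRD1 stretches lie on the plus strand of GRCh37 in the 1886 nt 3′ UTR of its canonical transcript, at chr12:104742838-104742864 and chr12:104743019-104743045. The AKR1C1 stretch lies on the plus strand in a 3′ UTR of 5541 nt, at chr10:5024354-5024380. The other 8 genes held no such match. Among the 10765 tested genes with a 3′ UTR, 14.05% held at least 1 match and 1.98% held 2 or more. A match is a description of the letters, and whether the siRNA acted on either transcript was not tested.

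The region around the transcription start was read from RefSeq (GRCh38.p14) for 9 of the 10 genes, all but AKR1B10. It was taken as windows of 300 bases that run from 250 bases before the start to 50 after it. They were searched on both strands for the core of the antioxidant response element, TGACNNNGC. The core was present in 3 of 12 windows and in 2 of the 9 genes, GCLM and TXNRD1, compared with 13.35% of all 35116 windows. These windows are shown because both genes held the core while their values after siHKlincR1 differed. Capitals mark each match, written as GCNNNGTCA where it is read from the opposite strand.
GCLM promoter, chr1:93909381-93909680, minus strand: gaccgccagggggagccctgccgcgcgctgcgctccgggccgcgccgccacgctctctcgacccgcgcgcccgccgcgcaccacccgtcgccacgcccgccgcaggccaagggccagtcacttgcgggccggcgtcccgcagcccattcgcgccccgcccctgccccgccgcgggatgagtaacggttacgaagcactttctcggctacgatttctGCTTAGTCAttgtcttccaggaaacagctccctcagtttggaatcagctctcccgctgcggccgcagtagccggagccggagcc
TXNRD1 promoter, chr12:104215529-104215828, plus strand: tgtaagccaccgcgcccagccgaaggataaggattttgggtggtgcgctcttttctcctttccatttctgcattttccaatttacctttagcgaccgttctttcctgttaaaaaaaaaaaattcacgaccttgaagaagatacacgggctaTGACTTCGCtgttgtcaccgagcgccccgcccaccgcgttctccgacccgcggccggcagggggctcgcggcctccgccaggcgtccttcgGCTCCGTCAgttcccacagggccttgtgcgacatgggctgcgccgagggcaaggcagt

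The GCLM match began 34 bases before the start. The TXNRD1 matches began 99 and 8 bases before it, and a second TXNRD1 window (chr12:104286782-104287081) held 1 more, 102 bases before its start. Response elements can lie further upstream than these windows reach, so a window without the core says only that these letters are not in it.

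The targets were abundant in control cells. In siNT the median of the 10 genes was 55.9 RPKM, against 5.05 RPKM for all tested genes, and 7 of the 10 were within the top 10% of tested genes. TXNRD1 (317 ± 45.9 RPKM, SD, n = 3) ranked 95 of 15451 and NQO1 (311 ± 12.7 RPKM) ranked 100, with overlapping libraries. They were followed by AKR1C1 (129 ± 14.2 RPKM), AKR1C2 (104.5 ± 5.42 RPKM), AKR1C3 (66.3 ± 3.25 RPKM), GCLM (45.6 ± 1.29 RPKM) and AKR1B10 (39.3 ± 16.3 RPKM). Neighbours in this order did not overlap between libraries, except for TXNRD1 with NQO1 and for AKR1B10 with GCLM. NFE2L2 itself was lower, at 21.6 ± 2.69 RPKM (rank 2379), followed by GCLC at 14.0 ± 0.62 RPKM and SRXN1 at 5.40 ± 0.288 RPKM. As deposited, the SRXN1 value was thus near the middle of all tested genes, within the top 48.2%, and below those of the others. RPKM is scaled by the length counted for each gene, which can exceed the length of its transcript. The reads and RPKM of AKR1C3 and GCLC correspond to a counted length well above that of their canonical transcripts. For AKR1B10 the counted length was close to that of its canonical transcript. The order above is therefore that of the deposited values, and it can depend on these lengths. A further limit holds for genes that share sequence with others. SRXN1, AKR1C1 and AKR1C2 share such stretches, as described below, so their levels and places in this order are uncertain. Each gene's value rested on 369 to 68729 reads per library.

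**Figure D1:**
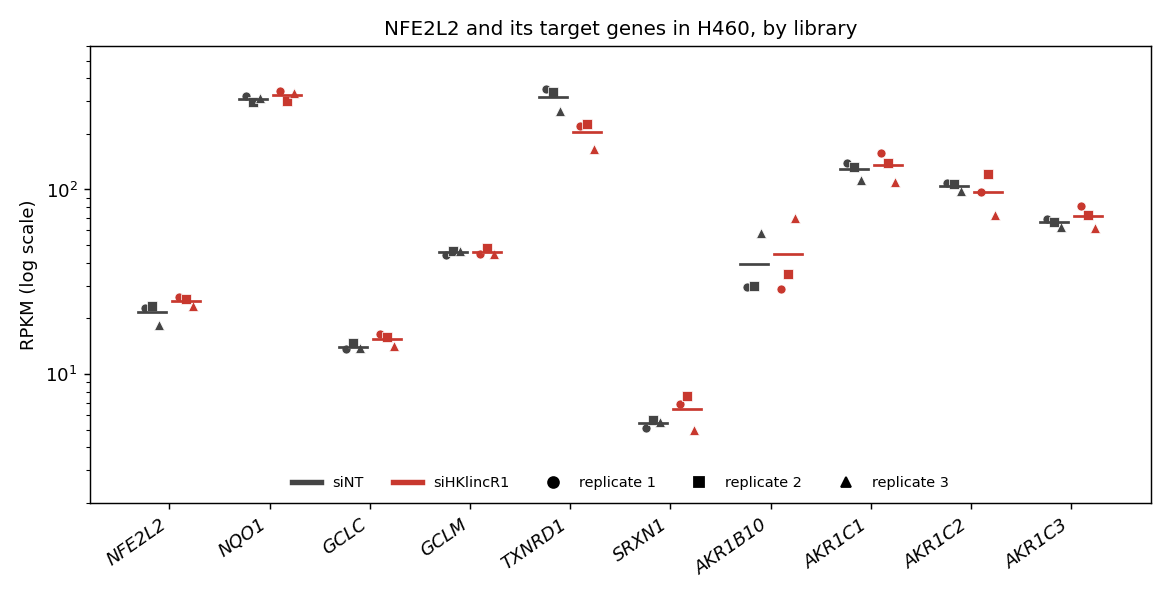
RPKM (log axis) of NFE2L2 and its 9 targets in each library, with siNT in grey, siHKlincR1 in red, symbols for the replicate number and a line at each group's mean. TXNRD1 is the gene whose red points all lie below its grey points, and AKR1B10 stands highest in replicate 3 of both groups.

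After siHKlincR1, the mean of TXNRD1 differed by -35.4%, whereas the other 9 genes had log2 fold changes between -0.13 and 0.24. None of the 10 was called by limma at an adjusted p under 0.05 with a fold change above 1.5. Of all tested genes 0.362% were called (56 of 15451, 55 lower and 1 higher), so this fit called hardly any increase. Limma with voom on whole reads also called none of the 10. At an unadjusted p under 0.05, 1 of the 10 passed (TXNRD1), as did 2508 of the tested genes. With the replicate number as a block, 1 of the 10 was called (TXNRD1), against 1.32% of tested genes (125 lower and 79 higher). The libraries of the groups did not overlap for 2 of the 10 genes, TXNRD1 and NFE2L2, against 22.0% of tested genes, so this count was near the background. The median log2 fold change was 0.089 over the 10 genes and 0.0011 over all tested genes, with 8 of the 10 above 0.

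TXNRD1 (ENSG00000198431, chr12:104609557-104744085, plus strand), with coordinates here and below on GRCh37, encodes the cytosolic thioredoxin reductase, the selenoenzyme that uses NADPH to keep thioredoxin reduced. It measured 350, 337 and 265 RPKM in siNT and 222, 227 and 166 RPKM in siHKlincR1. All siHKlincR1 libraries were below all siNT libraries, and replicate 3 was the lowest within each group. The mean was 317 ± 45.9 RPKM in siNT and 205 ± 33.6 RPKM in siHKlincR1, a log2 fold change of -0.63 (SE 0.15, 95% interval -0.99 to -0.27). The adjusted p was 0.167 without the block, and with the block it was 0.0138 (SE 0.047, 95% interval -0.75 to -0.51). The same-numbered libraries differed by -0.66, -0.57 and -0.67 on the log2 scale. An exact two-sided permutation test gave p = 0.1, the smallest that 3 libraries against 3 allow. Among the 173 tested genes with at least 200 RPKM in siNT, TXNRD1 had the lowest log2 fold change. That cut was not planned and used siNT alone, the group where TXNRD1 was higher, which favours genes with lower values in siHKlincR1. The rank is therefore a description only. No 75-nt window of the canonical TXNRD1 transcript was shared with the canonical transcript of another gene. EID3, a gene that lies within TXNRD1 on the same strand, had 3.23 to 3.96 RPKM in siNT and 3.1 to 7.58 RPKM in siHKlincR1.

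The mean of TXNRD1 was above that of NQO1 in siNT and below it in siHKlincR1, although NQO1 was already the higher in siNT replicate 3. Which gene is the higher can depend on the counted lengths, whereas the relative difference of a ratio between groups does not. The ratio of TXNRD1 to NQO1 was 1.09, 1.13 and 0.842 in siNT and 0.65, 0.75 and 0.499 in siHKlincR1. The ratio of TXNRD1 to TXN, its thioredoxin substrate, was 0.856, 0.864 and 0.646 in siNT and 0.528, 0.553 and 0.394 in siHKlincR1. Neither ratio overlapped between groups (exact two-sided permutation p = 0.1 for each). The summed level of the 10 genes was 1054 ± 55.4 RPKM in siNT and 973.5 ± 63.9 RPKM in siHKlincR1. Without TXNRD1 the sum of the other 9 was 737 ± 16.7 RPKM and 768 ± 33.3 RPKM.

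NFE2L2 (ENSG00000116044, chr2:178083395-178257484, minus strand) measured 22.9, 23.3 and 18.5 RPKM in siNT and 26, 25.4 and 23.5 RPKM in siHKlincR1. All siHKlincR1 libraries were above all siNT libraries, although the margin was small. The log2 fold change was 0.22 (SE 0.10, 95% interval -0.03 to 0.46, adjusted p = 0.341, and p = 0.1 by the exact permutation test). The adjusted p was 0.114 with the block, so a change of NFE2L2 was not established, and the interval did not reach 1.5-fold, which is 0.58 on the log2 scale.

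NQO1 (ENSG00000181019, chr16:69740899-69760571, minus strand), the quinone reductase often used as a readout of NRF2 activity, measured 322, 297 and 314 RPKM in siNT and 341, 303 and 333 RPKM in siHKlincR1. The groups overlapped, and the log2 fold change was 0.06 (SE 0.07, 95% interval -0.11 to 0.24, adjusted p = 0.67). A 1.5-fold change in either direction was therefore outside the interval of NQO1. Of its 75-nt windows, 17.94% were shared with an antisense gene that had at most 1 read in any library.

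The subunits of glutamate-cysteine ligase, the rate-limiting enzyme of glutathione synthesis, showed small differences. GCLC (ENSG00000001084, chr6:53362139-53481768, minus strand), the catalytic subunit, measured 13.6, 14.7 and 13.8 RPKM in siNT and 16.5, 15.8 and 14.1 RPKM in siHKlincR1 (log2 fold change 0.14, 95% interval -0.05 to 0.33, adjusted p = 0.417). GCLM (ENSG00000023909, chr1:94350755-94375012, minus strand), the modifier subunit, measured 44.1, 46.4 and 46.3 RPKM in siNT and 44.8, 48.3 and 44.6 RPKM in siHKlincR1 (log2 fold change 0.01, 95% interval -0.14 to 0.16, adjusted p = 0.953). GCLM thus had the narrowest spread of the 10 genes, with a coefficient of variation of 2.8% in siNT and 4.5% in siHKlincR1. The ratio of GCLM to GCLC was 3.25 ± 0.098 in siNT and 2.98 ± 0.232 in siHKlincR1, and its libraries overlapped (exact permutation p = 0.2). The size of this ratio depends on the lengths counted for both genes.

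SRXN1 (ENSG00000271303, chr20:627259-633844, minus strand), sulfiredoxin, repairs overoxidised peroxiredoxins. It measured 5.07, 5.63 and 5.48 RPKM in siNT and 6.9, 7.6 and 5 RPKM in siHKlincR1. The first and second siHKlincR1 libraries were above all siNT libraries and the third was below all of them. The log2 fold change was 0.24 (SE 0.15, 95% interval -0.11 to 0.60, adjusted p = 0.444). Without siHKlincR1 replicate 3 it was 0.42 with an adjusted p of 0.0431, still under 1.5-fold. SRXN1 shared 90.46% of its 75-nt windows with an overlapping readthrough gene listed at 0 in all 6 libraries, and how reads on the shared exons were assigned is not given in the sources used here, so its level is uncertain.

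**Figure D2:**
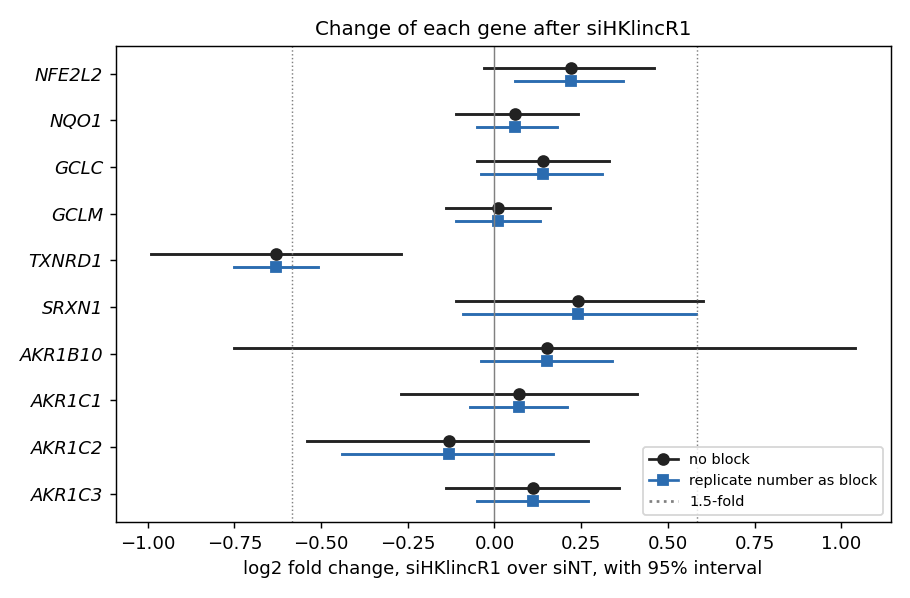
Log2 fold change of each gene, siHKlincR1 over siNT, with its 95% interval, from the fit without a block (black circles) and with the replicate block (blue squares), where dotted lines mark 1.5-fold. The interval of TXNRD1 lies below 0 in both fits, and the interval of AKR1B10 runs from -0.75 to 1.04 without the block and from -0.04 to 0.34 with it.

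The aldo-keto reductases reduce aldehydes and ketones with NADPH. AKR1B10 (ENSG00000198074, chr7:134212319-134226164, plus strand), which acts on retinal and lipid aldehydes, measured 29.8, 30 and 58.2 RPKM in siNT and 28.9, 35 and 70 RPKM in siHKlincR1. Replicate 3 was 1.94 times the mean of the other libraries in siNT and 2.19 times in siHKlincR1, so AKR1B10 differed more between replicate numbers than between groups. Its log2 fold change was 0.15 (SE 0.38, 95% interval -0.75 to 1.04, adjusted p = 0.863), and the block reduced the SE to 0.074 with an adjusted p of 0.278. A 1.5-fold change lay within the interval without the block and outside the blocked interval of -0.04 to 0.34.

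AKR1C1, AKR1C2 and AKR1C3 stand together on chromosome 10 and metabolise steroids and other carbonyls. AKR1C1 (ENSG00000187134, chr10:5005445-5025475, plus strand) measured 140, 133 and 113 RPKM in siNT and 158, 139 and 110 RPKM in siHKlincR1 (log2 fold change 0.07, 95% interval -0.27 to 0.41, adjusted p = 0.826). AKR1C3 (ENSG00000196139, chr10:5077546-5149878, plus strand) measured 69.4, 66.5 and 62.9 RPKM in siNT and 81.2, 72.8 and 61.5 RPKM in siHKlincR1 (log2 fold change 0.11, 95% interval -0.14 to 0.36, adjusted p = 0.625). In both genes replicate 3 was the lowest library of its group and the groups overlapped.

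AKR1C2 (ENSG00000151632, chr10:5029967-5060223, minus strand) measured 108, 107 and 98.3 RPKM in siNT and 97.5, 121 and 72.8 RPKM in siHKlincR1 (log2 fold change -0.13, 95% interval -0.54 to 0.27, adjusted p = 0.707). Its spread was wider in siHKlincR1, with a coefficient of variation of 24.9% against 5.2% in siNT. These genes are near-identical in places. AKR1C2 shared 33.94% of its 75-nt windows with AKR1C1, so their separate levels are uncertain. The summed level of AKR1C1, AKR1C2 and AKR1C3 was 300 ± 22.8 RPKM in siNT and 305 ± 52.3 RPKM in siHKlincR1. For 7 of the 10 genes, all but TXNRD1, SRXN1 and AKR1B10, the 95% interval without the block excluded a change of 1.5-fold in either direction.

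The targets did not move as 1 unit from library to library. The deviations of each gene from its own group's mean, on the scale of log2(RPKM + 0.1), were within 0.10 in every library for NQO1 and within 0.07 for GCLM. In replicate 3, AKR1B10 stood 0.64 above its mean in siNT and 0.76 above it in siHKlincR1. In the same libraries TXNRD1 stood at -0.25 and -0.29, AKR1C1 at -0.18 and -0.29, and NFE2L2 at -0.21 and -0.09. Over the 6 libraries, Pearson's r was 0.95 between AKR1C1 and AKR1C3, -0.92 between AKR1B10 and AKR1C1, and -0.25 between NFE2L2 and TXNRD1. These are descriptions over libraries that share the treatment and the replicate numbers.

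**Figure D3:**
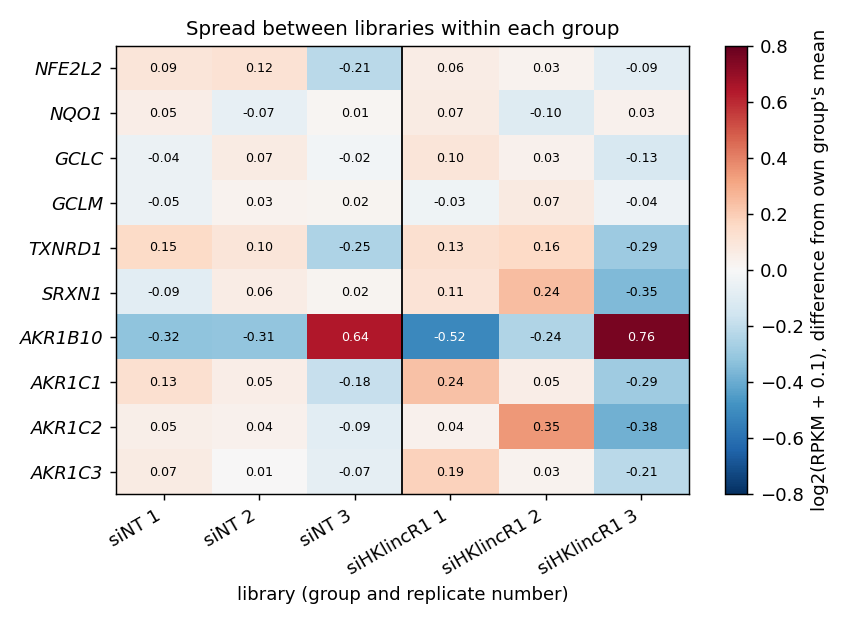
Difference of each library from its own group's mean, on the log2(RPKM + 0.1) scale, for the 10 genes (rows) in 6 libraries (columns), where red is above and blue below the mean. Replicate 3 is high for AKR1B10 (0.64 and 0.76) and low for TXNRD1 (-0.25 and -0.29) in both groups.

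By profile over the 6 libraries, the tested genes most like NFE2L2 were ATF4 (Pearson r = 0.997), the transcription factor of the integrated stress response, ULBP1 (r = 0.996), a ligand of an activating receptor of natural killer cells, and NDUFS1 (r = 0.996), a subunit of respiratory complex I. Their log2 fold changes were 0.19, 1.31 and 0.06. The genes most like the mean of the 9 targets were PITRM1 (r = 0.995), MRPS18A (r = 0.982) and ADAM8 (r = 0.979). With 15451 genes and 6 libraries, correlations of this size are a description of likeness only.

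The wider pathway was counted in 83 further genes, of which 73 were tested. None was called without the block, by limma on RPKM or by voom, and 14 of the 73 passed an unadjusted p under 0.05, beside 2508 of all 15451 tested genes. With the block 1 was called (TXNIP). Of the 73, 33 had a log2 fold change below 0 and 40 above it, the median was 0.037, and the groups did not overlap for 16, near the 22.0% of all tested genes. In siNT their median was 23.4 RPKM.

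Among 17 tested regulators of NRF2, the median log2 fold change was 0.052. KEAP1, singled out after its values were seen, measured 18.7 ± 1.71 RPKM in siNT and 17.2 ± 1.27 RPKM in siHKlincR1 (log2 fold change -0.12, adjusted p = 0.522). The widest differences were those of NFE2L1, a related transcription factor (log2 fold change 0.40, adjusted p = 0.426), BACH1, a repressor at the same elements (0.27, adjusted p = 0.473), and MAFK, a small MAF partner (-0.24, adjusted p = 0.229). SQSTM1, the autophagy receptor that competes for KEAP1, was the most abundant at 131 ± 6.31 RPKM in siNT and 139 ± 28.1 RPKM in siHKlincR1.

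Glutathione genes (14 tested) had a median log2 fold change of 0.0039. The widest differences were in the export pumps ABCC3 (0.32, adjusted p = 0.496), ABCC2 (0.27, adjusted p = 0.377) and ABCC1 (0.18, adjusted p = 0.302). GSTP1 (a glutathione transferase), GSR (glutathione reductase) and GPX1 (a glutathione peroxidase), the most abundant, had log2 fold changes of -0.02, -0.05 and 0.10. Among 6 genes that supply NADPH, PGD of the pentose phosphate pathway had 213 ± 3.09 RPKM in siNT, with a log2 fold change of 0.05. ME1, malic enzyme, measured 59.7, 60.1 and 56.8 RPKM in siNT and 72.2, 69.1 and 63.8 RPKM in siHKlincR1, without overlap (log2 fold change 0.21, adjusted p = 0.237), followed by IDH1 at 0.20 and TKT at -0.05.

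The thioredoxin system (14 tested besides TXNRD1 and SRXN1) held the gene with the widest difference of all the lists. TXNIP, which binds and inhibits thioredoxin, measured 31.8, 29.4 and 9.1 RPKM in siNT and 132, 134 and 36.5 RPKM in siHKlincR1. Every siHKlincR1 library was above every siNT library, and replicate 3 was far below the others in both groups. The log2 fold change was 2.07 (SE 0.64, adjusted p = 0.229), and with the block the SE was 0.056 and the adjusted p was 0.00262. TXN, the reductase's substrate, had 403 ± 11.6 RPKM in siNT and 418 ± 6.27 RPKM in siHKlincR1 (log2 fold change 0.05, adjusted p = 0.688). TXNRD2 and TXNRD3, the other thioredoxin reductase genes, singled out after their values were seen, had log2 fold changes of 0.06 and 0.08. GLRX had a log2 fold change of 0.35 (adjusted p = 0.445), and the peroxiredoxins PRDX1, PRDX4 and PRDX6 had -0.17, -0.22 and -0.01.

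Heme and iron genes (7 tested) included the most abundant transcripts of the pathway, FTL at 5355 ± 394 RPKM and FTH1 at 1191 ± 44.1 RPKM in siNT, the ferritin subunits (log2 fold changes 0.14 and 0.12). ABCB6, a porphyrin transporter, had -0.40 (adjusted p = 0.253), BLVRA -0.17 and BLVRB 0.20. HMOX1, heme oxygenase, had 13.1 ± 3.06 RPKM in siNT and 11.4 ± 0.248 RPKM in siHKlincR1 (log2 fold change -0.17, adjusted p = 0.573).

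Of 15 detoxification genes 11 were tested, with a median log2 fold change of 0.021. ALDH3A1, an aldehyde dehydrogenase, measured 131, 134 and 188 RPKM in siNT and 104, 88.8 and 120 RPKM in siHKlincR1. Its groups did not overlap, with a log2 fold change of -0.52 and an adjusted p of 0.235, and of 0.0437 with the block, which left it under 1.5-fold. CBR3 had -0.50 (adjusted p = 0.286) and NR0B1 0.35 (adjusted p = 0.252), while the abundant EPHX1 and UGDH had -0.14 and -0.01. Of 8 other aldo-keto reductases 4 were tested, and AKR1C4, AKR1B1, AKR1A1 and AKR7A2 had log2 fold changes of 0.14, -0.11, -0.03 and -0.01.

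**Figure D4:**
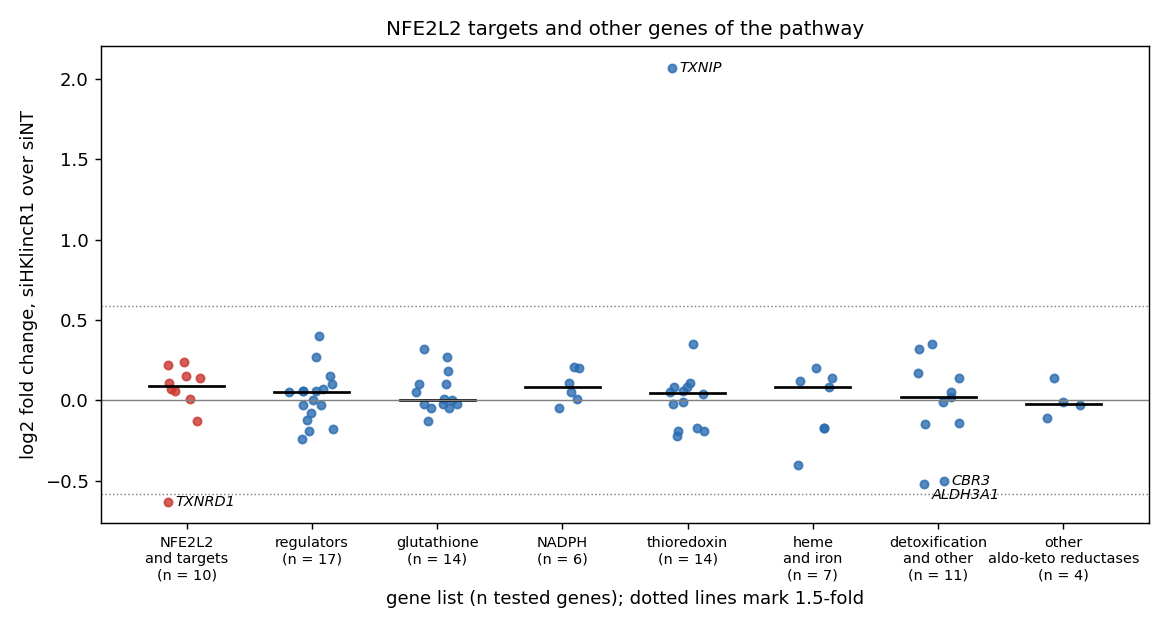
Log2 fold change, siHKlincR1 over siNT, of each tested gene among NFE2L2 and its targets (red) and 7 lists of related genes (blue), where black lines are medians and dotted lines mark 1.5-fold. TXNRD1 (-0.63) and TXNIP (2.07) are the genes outside 1.5-fold, and neither was called by the fit without a block that these values come from.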

How the data were processed

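The authors prepared strand-specific polyA libraries, sequenced them as paired 75 bp reads, counted reads per gene on Ensembl v74 models (hg19) and deposited RPKM values. The submitters' processing notes name CASAVA 1.8.2 and featureCounts. Strand settings and the handling of reads on overlapping genes are not given in the sources used here.

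RPKM was analysed as deposited. As the values were not rounded, reads and totals were worked back from them, and 100% of 152380 nonzero values were whole within 0.01 reads. On simulated data 11716 of 11814 genes came back exactly. Libraries held 24980280 to 30521000 reads.

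Tests used limma 3.58.1 in R 4.3.3 (lmFit, eBayes with trend) on log2(RPKM + 0.1) for 15451 genes averaging 0.5 RPKM or more, adjusted with the Benjamini-Hochberg method over all of them. Fold changes are on that scale. Calls required an adjusted p below 0.05 together with a change beyond 1.5-fold, as in the study's methods. In simulated data of this comparison (15451 genes), 200 of the more abundant genes were lowered by 1.5 on the log2 scale. The simulated noise was independent between libraries. Of the changed genes 96% were recovered, at a change larger than 1.5-fold. How often the fit calls a difference near 1.5-fold in libraries as variable as these was not tested. Without the block, limma did not call TXNIP at a log2 fold change of 2.07 (SE 0.64, adjusted p = 0.229). Same-numbered libraries deviated together from their group means (r = 0.142, 0.137 and 0.266, other pairings -0.209 to 0.113). The value of 0.113, for siNT replicate 1 with siHKlincR1 replicate 2, was close to those of the same-numbered replicates 1 and 2. These values thus set replicate 3 apart but do not clearly separate replicates 1 and 2. For the block, the replicate numbers, which come from the labels, were taken to pair the libraries. The block is an alternative to the fit without it. Alternatives also covered the pseudocount, filter, scaling, trend, voom on reads and leaving out each library.

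Names came from GENCODE v44 on GRCh37 (55538 of 57773 identifiers), and for TXNIP, whose identifier was retired, from the study's supplementary gene list, which was chosen on these libraries. The 10 genes and the lists were chosen with earlier results of these data known. Besides the 10 genes, HKlincR1 and list genes were named: every called gene, and up to 3 by absolute log2 fold change and up to 3 by siNT level in each list. ACTB, also named by the rule, had a log2 fold change of -0.13 (adjusted p = 0.571). One gene that the rule names is not reported here.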

Additional observations from a re-analysis of the deposited data

How the results depend on the processing

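The direction of TXNRD1 held under all 16 alternative fits, with log2 fold changes of -0.76 to -0.49 and adjusted p-values of 0.000537 to 0.398. Leaving out 1 library each gave -0.76 to -0.49 and no call. TXNRD1 was called only with the replicate block (-0.63, adjusted p = 0.0138) and with voom on whole reads and the block (-0.63, adjusted p = 0.000537), the latter chosen after seeing the data. The number of the 10 genes called was 0, and 1 in each of these blocked fits. The block changed no other call among the 10 genes, and NFE2L2 had an adjusted p of 0.0464 with voom and the block (0.114 with the block alone) at a log2 fold change of 0.22, under 1.5-fold. Among the 83 related genes the number called was 1 in each blocked fit (TXNIP) and ranged from 0 to 2 when leaving out 1 library each, where TXNIP and ABCC3 (log2 fold change 0.60, adjusted p = 0.0355) were called without siHKlincR1 replicate 3. The number of all tested genes called was 56, and it was 17 without the trend, 204 with the block, 87 with voom, 423 with voom and the block, and 7 to 518 when leaving out 1 library each, with 518 without siHKlincR1 replicate 3. The cause was not tested. Small uncalled differences changed sign when 1 library was left out for GCLM (2 of 16 alternatives), AKR1B10 (3), AKR1C1 (2) and AKR1C2 (1). With 3 libraries a group, the intervals of AKR1B10 and SRXN1 allowed changes of 1.5-fold.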
